A study of Rattus norvegicus with 4 samples.

Results

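Calpains are cysteine proteases that are switched on by calcium and cut a limited set of proteins at a few sites each. The classical calpains pair a catalytic subunit, encoded by Capn1 or Capn2, with a shared small regulatory subunit encoded by Capns1, and calpastatin, encoded by Cast, is their own protein inhibitor. In sensory neurons they are known for cutting spectrin, neurofilament and other cytoskeletal proteins when calcium rises in a degenerating axon. The calpain system was followed here in lumbar dorsal root ganglia (DRG), which hold sensory neuron cell bodies, glia and other cells. It comprised 9 protein-coding genes of the 22293 in the deposited count table, namely 6 catalytic calpains (Capn1, Capn2, Capn5, Capn7, Capn10 and Capn15), Capns1, its annotated copy LOC100911363, and Cast. They were taken by gene name, except that LOC100911363 was chosen by its counts, which were far lower after cisplatin. All 9 passed the filter on low counts, which kept 14719 genes.

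DRGs came from wild-type Wistar rats given either vehicle (phosphate-buffered saline) or cisplatin, a platinum-based chemotherapeutic, at 0.3 mg/kg, with 2 libraries in each group. Per the methods of the study the injections were intraperitoneal, on postnatal days 14 and 16, and the tissue was collected on day 23, whereas the labels place collection 16 days after treatment. Between 2 and 5 lumbar DRGs were pooled for each library, and the labels do not give the sex of the rats. The same 4 libraries underlie every comparison below.

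Each library held between 21384801 and 25618417 counts. All 8 neuronal, 7 Schwann cell and 5 satellite glia markers had counts in every library. Schwann cell markers summed to 61698 and 156655 CPM (library-scaled counts, with library totals adjusted by TMM factors) in vehicle libraries 1 and 2, and to 48179 and 137386 CPM in cisplatin libraries 1 and 2. Library 2 was thus the higher one in both groups. Skeletal muscle markers stood apart in vehicle library 1, at 629 CPM against 18.8 to 63.0 CPM in the other libraries. Summed markers of satellite glia (3299 to 4374 CPM), macrophages (47.5 to 57.6 CPM), endothelium (61.5 to 92.0 CPM, with Cldn5 listed at 0) and blood (1070 to 1240 CPM) overlapped between the groups. Those of fibroblasts and meninges were 5743 and 7572 CPM in vehicle against 3075 and 5743 CPM in cisplatin libraries, which barely overlapped. Of these 7 markers DESeq2 called Ptgds, with an edgeR log2 fold change of 2.07, and Col1a2, at -1.59, which edgeR did not call. Results are also given with single libraries left out.

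The largest difference among the 9 genes was that of LOC100911363, which was chosen for it. In the annotation of the deposited tables (Ensembl, Rnor_6.0) the small subunit protein name is attached to 3 protein-coding genes, all on chromosome 1. LOC100911363 (ENSRNOG00000045747) spans positions 91058529 to 91063928 on the minus strand. LOC100912380 (ENSRNOG00000048194) spans 88652446 to 88657845, also on the minus strand, and is not among the 9 genes named above but shares the protein name. Capns1 itself (ENSRNOG00000060312) spans 90919076 to 90921047 on the plus strand. The first 2 are annotated alike, each over 5400 bases with a counted length of 729 bases, whereas the gene named Capns1 has a counted length of 495 bases. Genes that share a protein name may take reads from one another if their sequences are alike, and these were not compared here. Whether reads that map to several places were kept is not given in the sources used here. The value of each single copy is therefore uncertain, and a sum over the copies would lack such reads if they were dropped.

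LOC100911363 had 73.7 and 75.9 CPM in vehicle against 3.62 and 3.19 CPM in cisplatin libraries. Both cisplatin libraries lay far below both vehicle ones, and libraries of the same group were close to each other. The fitted log2 fold change was -4.45 (standard error, SE, 0.21), and with 1 library left out it lay between -4.54 and -4.37. Without vehicle library 1, which held the muscle markers, it was -4.47. Because the gene was chosen for this difference, the values are a description and no test is given. Of all genes tested, 9 had a more negative log2 fold change.

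The other copies lay on the opposite side. LOC100912380 had 86 and 90 counts in vehicle against 201 and 174 counts in cisplatin libraries. Both cisplatin libraries lay above both vehicle libraries, with a log2 fold change of 0.94 (SE 0.29, adjusted p = 0.509 in the quasi-likelihood test of edgeR), which did not pass the threshold. Capns1 had 73 and 51 counts against 93 and 78 counts. Its groups did not overlap either, with a log2 fold change of 0.34 (SE 0.31, edgeR adjusted p = 0.725), which an offset for gene length brought to 0.026. Groups did not overlap in 41.8% of all genes tested, and the cisplatin libraries were both above in 20.6%.

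The distribution of reads over the 3 copies is described without a test, since LOC100911363 was chosen by these counts. LOC100911363 held 92.1% (95% Wilson interval 90.8% to 93.2%) and 91.4% (89.9% to 92.6%) of the counts with the small subunit name in the vehicle libraries. In the cisplatin libraries it held 23.8% (19.9% to 28.3%) and 22.9% (18.7% to 27.8%). These intervals treat every count as independent and leave out the spread between rats and the assignment of reads between copies. Reads lacking molecular identifiers can repeat a molecule, so the intervals may be too narrow even for counting error. The difference in the other two copies was smaller and of opposite sign. Together they had 6.76 ± 0.574 CPM in vehicle against 11.1 ± 0.609 CPM in cisplatin libraries, while LOC100911363 had 74.8 ± 1.58 CPM against 3.40 ± 0.307 CPM (SD, n = 2 each). Summed over all 3 copies, the level was 81.5 ± 2.15 CPM in vehicle and 14.5 ± 0.916 CPM in cisplatin-treated rats, 5.61-fold lower after cisplatin. Reads that map to several copies may be missing from this sum. The fitted log2 fold change of the sum was -2.49 (SE 0.18), and between -2.54 and -2.42 with 1 library left out. It holds LOC100911363 and is therefore also given without a test.

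**Figure D1:**
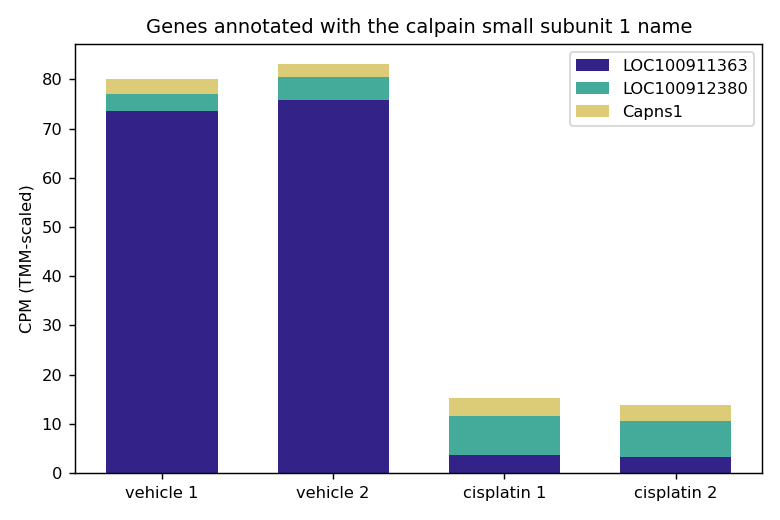
Bars stack the CPM of the 3 genes annotated with the calpain small subunit 1 name in each of the 4 libraries. LOC100911363 makes up most of both vehicle bars and a small part of both cisplatin bars, and the bars reach 80.0, 83.1, 15.2 and 13.9 CPM.

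The copies sit in a stretch of chromosome 1 that the annotation holds in duplicate. Within 200 kb of LOC100912380 there are 17 protein-coding genes, itself included, and within 200 kb of LOC100911363 or Capns1 there are 14. The neighbourhoods share 10 protein names, those of Cox7a1, Capns1, Tbcb, Polr2i, Ovol3, Wdr62, Clip3, Alkbh6, Syne4 and Sdhaf1. With the gene named Capns1 set aside, the order of these 10 at the higher coordinates is the exact reverse of the order at the lower coordinates. Of the 10, 9 lie on opposite strands in the segments. Only the small subunit copies, LOC100912380 and LOC100911363, lie on the same strand. The gene named Capns1 lies 137 kb from LOC100911363, outside this series of 10. In the RefSeq annotation of a later rat assembly, GRCr8, each of the 10 genes is listed once, in the order of the segment that holds LOC100912380.

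Some other duplicated genes of the stretch had high counts in single libraries. Alkbh6, which encodes a member of the AlkB family, had 100, 3, 4 and 3 counts at the lower coordinates and 9, 3, 3 and 85 counts at the higher coordinates, in vehicle libraries 1 and 2 and cisplatin libraries 1 and 2. Its signal thus came mainly from one copy in vehicle library 1 and from the other copy in cisplatin library 2. Tbcb, a tubulin-folding cofactor, had 40, 44, 52 and 245 counts at the higher coordinates, so a single cisplatin library stood apart. Syne4, which encodes a nuclear envelope protein, had 1, 2, 1 and 51 counts at the lower and 2, 0, 0 and 19 counts at the higher coordinates. Again cisplatin library 2 was the high one. Clip3, which encodes a cytoplasmic linker protein, had 230, 23, 43 and 43 counts at the lower and 293, 733, 195 and 316 counts at the higher coordinates.

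With the copies summed, 9 of the 10 genes had counts. For 4 of these, Alkbh6, Cox7a1, Syne4 and Tbcb, the groups overlapped, and libraries of the same group differed by more than 2-fold. The summed level of Alkbh6 differed 14.3-fold between the vehicle and 13.6-fold between the cisplatin libraries. The summed small subunit differed 1.04-fold and 1.09-fold within the groups, but it holds LOC100911363, which was chosen for its difference between them. Within the groups Wdr62 differed 1.18-fold and 1.29-fold, Polr2i 1.27-fold and 1.34-fold, and Clip3 1.84-fold and 1.63-fold. The groups did not overlap in 5 genes, beside 41.8% of all genes tested, with the cisplatin libraries lower for Capns1 and Clip3 and higher for Polr2i, Sdhaf1 and Wdr62. Polr2i and Sdhaf1 had few counts, at most 13 and 5 in any library. Wdr62, which encodes a spindle pole protein, had 12, 7, 38 and 28 counts at the lower coordinates, with a log2 fold change of 1.66 (SE 0.49, edgeR adjusted p = 0.509). What part the assignment of reads between copies has in these values was not tested.

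**Figure D2:**
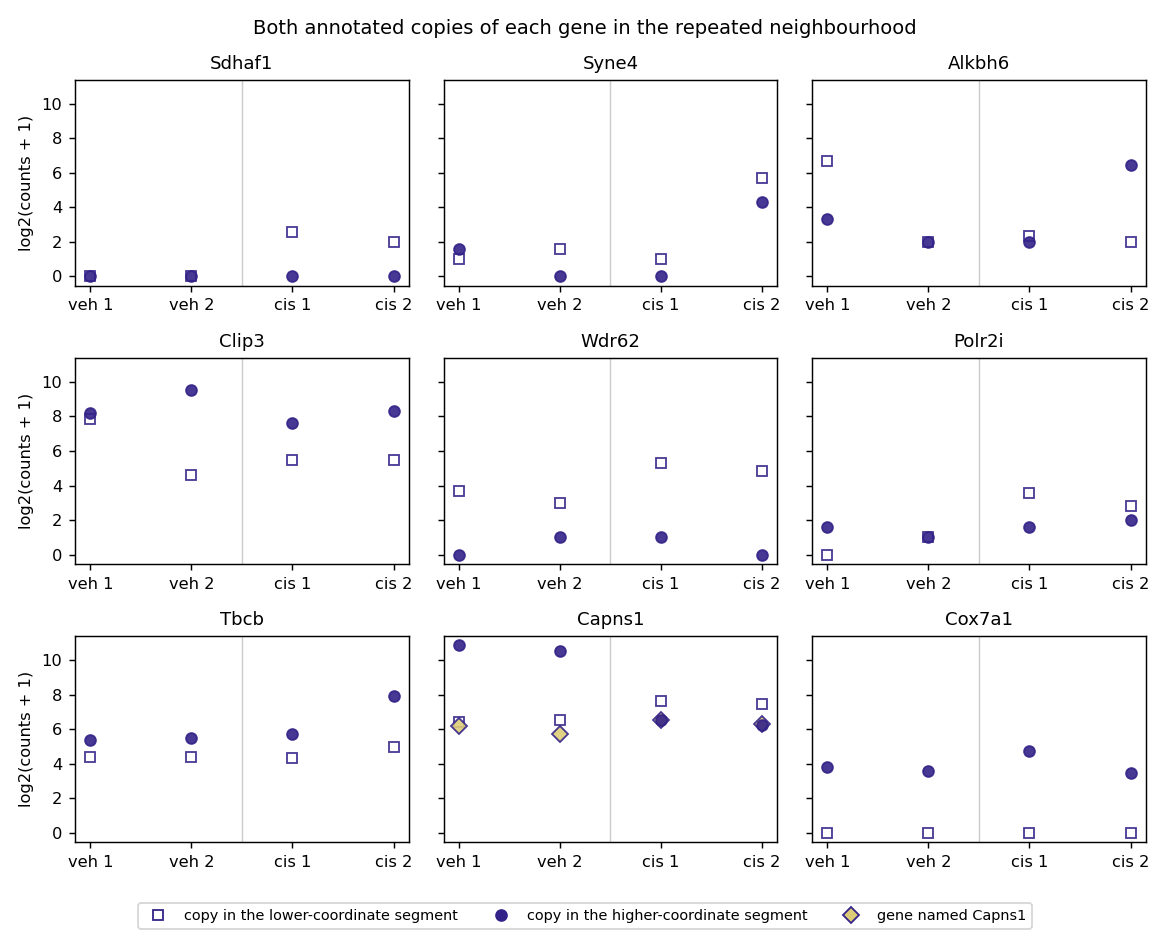
Each panel shows log2(counts + 1) for both annotated copies of a gene in the 4 libraries (veh, vehicle; cis, cisplatin), with open squares for the segment at lower and filled circles for the segment at higher coordinates, and a diamond for the gene named Capns1. Within the Capns1 panel both vehicle libraries share the high LOC100911363 value, and that gene was chosen for its difference between the groups. In Alkbh6, Syne4 and Tbcb the high value belongs to single libraries.

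The genes whose profile over the 4 libraries was most like that of LOC100911363 were Odf3, LOC100911186, AC103129.2, AABR07002177.1 and Aspn. Likeness was the root-mean-square difference of centred log2 CPM to 14718 other genes, and it ran from 0.66 for Odf3 to 0.80 for Aspn. They were thus picked for the same difference, and Odf3, AABR07002177.1 and Aspn had at most 2 counts in either cisplatin library. All but Odf3 share their protein name with another gene, as do 10.2% of all genes tested. What part this has in their values was not tested. LOC100911186 carries the name of the enoyl-CoA hydratase Echs1, an enzyme of mitochondrial fatty acid oxidation. It had 677 and 698 counts in vehicle against 10 and 22 counts in cisplatin libraries. Echs1 itself had 6 and 22 counts against 18 and 30 counts.

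None of the 8 other members was called. With calls made at 1.5-fold and an adjusted p under 0.05, edgeR called 0 of 8, where it called 0.00679% of all genes tested. That share is 1 gene, LOC100911363 itself, which was chosen for its fall. None of the 8 had an unadjusted p under 0.05. None therefore had one together with a 1.5-fold change, which 8.12% of all genes tested had. DESeq2 also called 0 of 8, beside 0.549% of its genes (0.2% higher and 0.35% lower after cisplatin). The median log2 fold change of the 8 was 0.03, beside -0.01 for all genes tested. The fold changes ran from -0.09 for Cast to 0.34 for Capns1, each with an SE between 0.18 and 0.31.

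Capn1 encodes the catalytic subunit of calpain-1, which works at micromolar calcium. Capn1 (ENSRNOG00000020935; chromosome 1, 221346066 to 221370322) had 158 and 131 CPM in vehicle against 206 and 159 CPM in cisplatin libraries. Both cisplatin libraries were above both vehicle ones, though cisplatin library 2 lay only just above vehicle library 1. Its log2 fold change was 0.34 (SE 0.22, edgeR adjusted p = 0.636), and it ranged from 0.15, without cisplatin library 1, to 0.51, without cisplatin library 2. The summed neuronal markers were ordered over the libraries as Capn1 was, with 8580 and 6952 CPM in vehicle against 12949 and 9012 CPM in cisplatin libraries. All 8 neuronal markers had a positive log2 fold change, with a median of 0.45, and none was called. Their part in the value of Capn1 was not tested, and in whole ganglia more neurons and more RNA per neuron cannot be told apart.

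Capn2, whose product calpain-2 needs more calcium, showed almost no difference. Capn2 (ENSRNOG00000034015; chromosome 13, 100878650 to 100928811) had 362 and 388 CPM in vehicle against 350 and 403 CPM in cisplatin libraries. The cisplatin values lay on both sides of the vehicle values. The log2 fold change was 0.01 (SE 0.22, edgeR adjusted p = 0.995). Its sign turned without vehicle library 1, to -0.04, and without cisplatin library 2, to -0.10.

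Cast (ENSRNOG00000010286; chromosome 2, 1452116 to 1561464), the inhibitor, had 136 and 139 CPM in vehicle against 125 and 135 CPM in cisplatin libraries. Both cisplatin libraries were slightly below both vehicle ones, as in 21.2% of all genes tested. The log2 fold change was -0.09 (SE 0.18, edgeR adjusted p = 0.890), and with an offset for gene length it was 0.10, of opposite sign.

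The remaining calpains lack the penta-EF-hand domain through which Capn1 and Capn2 products bind the small subunit. Capn5, the most abundant of these, had 238 and 243 CPM in vehicle against 309 and 234 CPM in cisplatin libraries. Only cisplatin library 1 stood above the others, and the log2 fold change was 0.17 (SE 0.22, edgeR adjusted p = 0.814), or -0.03 without that library. Capn7, whose product carries microtubule interacting and transport domains, had between 38.9 and 44.1 CPM in all libraries, with a log2 fold change of 0.05. Capn10, known for its link to type 2 diabetes, had between 28.9 and 35.5 CPM, with a log2 fold change of -0.07. Capn15, which has zinc fingers beside its protease domain, had between 21.7 and 28.3 CPM, with a log2 fold change of -0.08. For Capn7, Capn10 and Capn15 the groups overlapped, and their adjusted p ran from 0.919 to 0.944 in edgeR. The gene D630044L22Rik lies inside Capn15 on the opposite strand, with 1 count in the 4 libraries together.

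**Figure D3:**
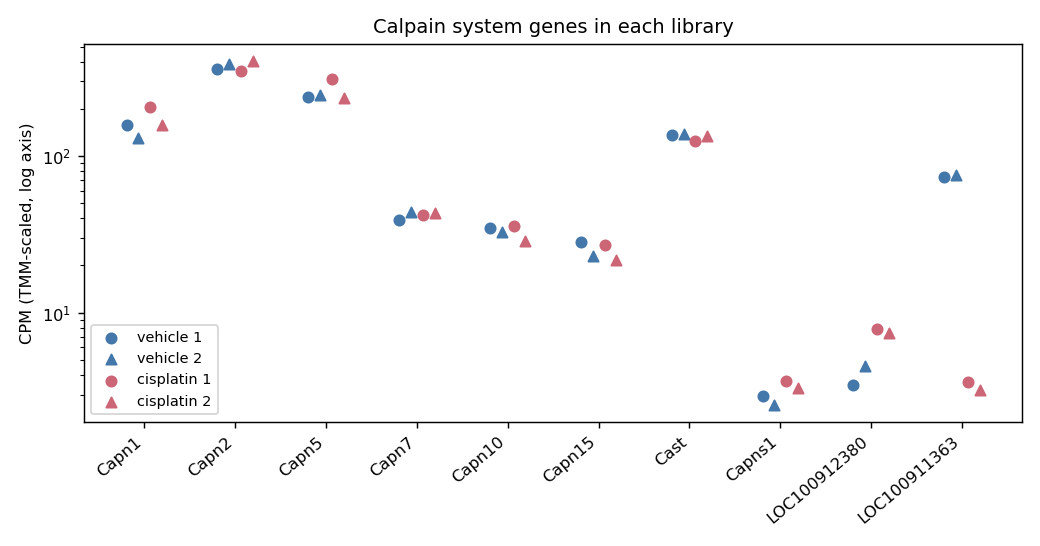
Points give the CPM of each calpain system gene, and of LOC100912380, in the 4 libraries on a log axis, in blue for vehicle and red for cisplatin-treated rats, with circles for library 1 and triangles for library 2. The points of each gene lie close together except for LOC100911363, at 73.7 and 75.9 CPM in vehicle against 3.62 and 3.19 CPM in cisplatin-treated rats, and to a smaller degree LOC100912380.

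**Figure D4:**
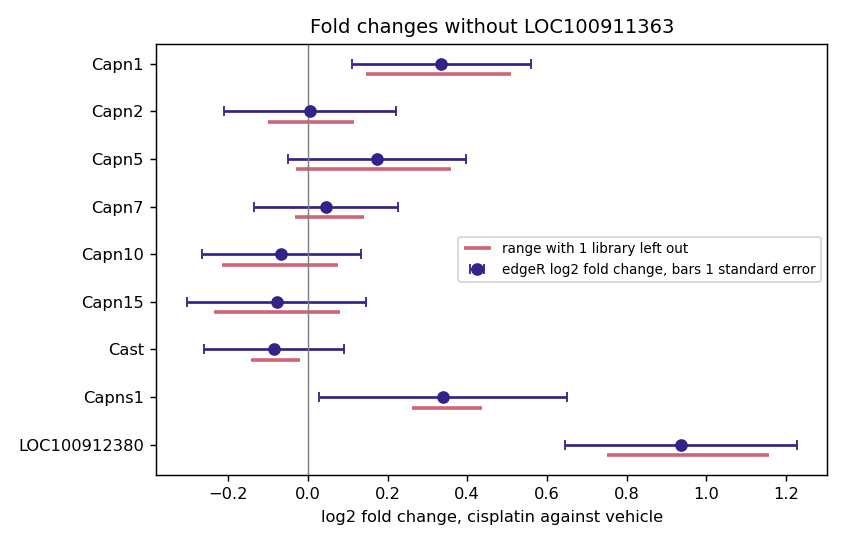
Points are edgeR log2 fold changes of cisplatin against vehicle-treated rats with bars of 1 standard error, and the lines beneath span the values with 1 library left out. Without LOC100911363, which is not drawn, the members lie between -0.09 and 0.34, and LOC100912380 lies at 0.94.

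Levels were compared between genes per length of gene, with FPKM (fragments scaled by gene length and library size). In vehicle-treated rats Capn2 was highest, at 104 ± 4.46 FPKM, and LOC100911363 followed at 99.96 ± 1.36 FPKM (SD, n = 2 each). Those 2 overlapped. Capn5 came next at 52.6 ± 0.429 FPKM, then Capn1 at 47.0 ± 6.71 FPKM, Cast at 29.0 ± 0.281 FPKM, Capn10 at 14.5 ± 0.755 FPKM and Capn7 at 11.4 ± 0.917 FPKM, with both libraries of each above both libraries of the next. Capns1, LOC100912380 and Capn15 closed the order at 5.42, 5.35 and 4.81 FPKM, and neighbours among these overlapped. In cisplatin-treated rats the order of Capn2, Capn5, Capn1, Cast, Capn10 and Capn7 was the same, with Capn5 and Capn1 overlapping at 59.6 and 59.5 FPKM. LOC100911363 was at 4.57 ± 0.406 FPKM (SD, n = 2), level with Capn15 and below both other copies.

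The small subunit was also set against its partners. LOC100911363 was chosen for its fall, so ratios that include it are a description without a test. Reads that map to several copies may be missing from them. The summed FPKM of the 3 small subunit copies was 0.716 and 0.750 of the summed FPKM of Capn1 and Capn2 in the vehicle libraries, and 0.138 and 0.126 in cisplatin libraries. Without LOC100911363 the ratio was 0.0680 and 0.0746 against 0.108 and 0.1004. The ratio of Cast to Capn1 and Capn2 was 0.189 and 0.195 in vehicle against 0.160 and 0.174 in cisplatin libraries, so the groups did not overlap but lay close. Capn2 exceeded Capn1 in every library, by 1.95 and 2.54 times in vehicle and 1.45 and 2.17 times in cisplatin-treated rats.

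The rest of the calpain family was low. The whole family was listed by symbol as 18 genes, which include the 8 members other than LOC100911363 but not LOC100911363 itself. Of the 18, 16 were present in the data and 12 passed the filter, those 8 members among them. Of these 12, 0 were called by edgeR or DESeq2, and 0 had an unadjusted p under 0.05 with a 1.5-fold change. Their median log2 fold change was 0.05. Capn6, a calpain without protease activity, had 80 and 136 counts in vehicle against 112 and 175 counts in cisplatin libraries, where library 2 was the higher one in both groups. Capn3, the calpain of skeletal muscle, had 41 and 25 counts against 37 and 37 counts. It was not raised in vehicle library 1 to the degree of the muscle markers. Capn12 had 46 and 24 counts against 23 and 42 counts, and Capn8, known from the stomach, 12 and 2 counts against 17 and 3 counts. Capn13, Adgb, Capn9 and Capn11 did not pass the filter, with at most 7 counts in any library. Capn14 and Capns2 were not analysed here.

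Proteins of the penta-EF-hand family share the calcium-binding fold of the small subunit. Of 5 genes, the 4 family members and the ALG-2 partner Pdcd6ip, 0 were called by either tool or passed at the unadjusted p with a 1.5-fold change, and the median log2 fold change was 0.14. Pef1, which encodes peflin, had 79.7 and 86.7 CPM in vehicle against 113 and 101 CPM in cisplatin libraries, with a log2 fold change of 0.36 (SE 0.18, edgeR adjusted p = 0.549). Sri, which encodes sorcin, had 39.5 and 50.2 CPM against 55.7 and 58.6 CPM, with a log2 fold change of 0.35, or 0.20 without vehicle library 1. In both genes the cisplatin libraries were above the vehicle ones, as they were for Pdcd6, which encodes ALG-2, at 0.14. For Pdcd6ip, at -0.19, both cisplatin libraries were below. Gca, which encodes grancalcin, overlapped, with 685 and 806 counts in vehicle against 311 and 690 counts in cisplatin libraries.

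Of 21 tested genes of cytoskeletal substrates 0 were called by edgeR or DESeq2, and 3 had an unadjusted p under 0.05 with a 1.5-fold change. The latter were 8.12% of all genes tested. Of the 21, 6 had a positive log2 fold change and the median was -0.20. Both cisplatin libraries were below both vehicle ones in 6 and above in 0, beside 21.2% below and 20.6% above over all genes tested. Map2, a microtubule protein of neuronal cell bodies and dendrites, had 70.7 and 30.6 CPM in vehicle against 21.8 and 21.5 CPM in cisplatin libraries. Its log2 fold change of -1.23 (SE 0.40, edgeR adjusted p = 0.509) was -0.49 without vehicle library 1, which alone was far above the rest. Ank2, which encodes ankyrin-B, had 404 and 202 CPM against 173 and 127 CPM, and its log2 fold change was -1.01, or -0.42 without vehicle library 1. Tln2, which encodes a talin, was at -0.74, or -0.44 without that library, and Sptbn1, which encodes a beta-spectrin of axons, at -0.54. The most studied calpain substrates differed less. Sptan1, which encodes the alpha-spectrin cut by calpains, had a log2 fold change of -0.06, and the neurofilament genes Nefl, Nefm and Nefh had 0.16, 0.21 and 0.07.

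Of 19 genes of signalling and cell death substrates 0 were called by either tool. At the unadjusted p with a 1.5-fold change 2 passed, beside 8.12% of all genes tested. The median log2 fold change was -0.10. Both cisplatin libraries were above both vehicle ones in 5 genes and below in 5, beside 20.6% and 21.2% of all genes tested. Itpr1, an intracellular calcium release channel, had 216 and 168 counts in vehicle against 98 and 125 counts in cisplatin libraries, a log2 fold change of -0.90. Prkca, a calcium-dependent kinase, was at -0.85, and between -1.29 and -0.50 with 1 library left out, the latter without cisplatin library 1. Camk4, a kinase activated by calcium and calmodulin, was at 0.78, with 175 and 82 counts against 309 and 166 counts, and Casp12 at 0.67. Camk4 was at 0.34 without cisplatin library 1 and at 1.21 without vehicle library 1, and Casp12 at 0.20 without vehicle library 1 and at 1.34 without vehicle library 2. The adjusted p of these 4 ran from 0.509 to 0.658 in edgeR.

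Of 13 tested genes of axon degeneration 0 were called by either tool. At the unadjusted p with a 1.5-fold change 1 passed, beside 8.12% of all genes tested. The median log2 fold change was -0.23. Both cisplatin libraries were above both vehicle ones in 2 genes and below in 3, beside 20.6% and 21.2% of all genes tested. Stmn2, which maintains axons through microtubules, had 1672 and 1347 CPM in vehicle against 2642 and 1789 CPM in cisplatin libraries, in the same library order as the neuronal markers. Its log2 fold change was 0.55 (SE 0.40, edgeR adjusted p = 0.660), or 0.25 without cisplatin library 1. Apaf1, which assembles the apoptosome, was at -0.79, Map3k13 at -0.36 and Mycbp2, a ubiquitin ligase that acts on axon survival, at -0.31, or -0.17 without vehicle library 1. Sarm1, which triggers axon self-destruction, had a log2 fold change of -0.23, and its groups overlapped.

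**Figure D5:**
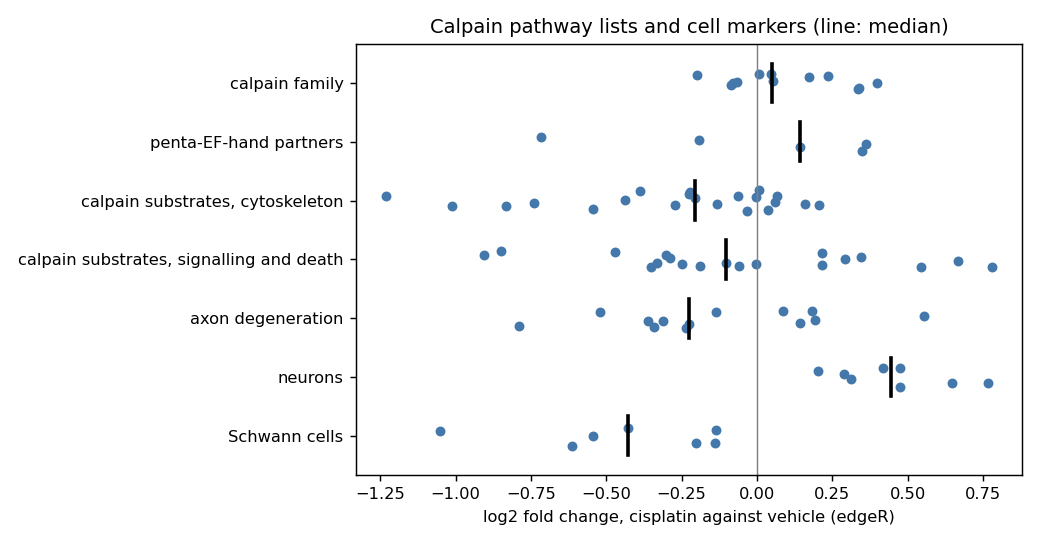
Each point is the edgeR log2 fold change of a tested gene, cisplatin against vehicle-treated rats, by list, and black lines are medians. The calpain family centres at 0.05, the substrate lists at -0.20 and -0.10, the neuronal markers at 0.45 and the Schwann cell markers at -0.43.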

How the data were processed

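Poly(A)-selected, paired-end RNA sequencing was performed on 4 DRG libraries. The authors mapped reads to Ensembl Rnor_6.0 with HISAT2 2.0.5, assembled transcripts with StringTie 1.3.3b and deposited raw counts per gene. featureCounts 1.5.0-p3 is named in the submitters' processing notes without a role. The extract protocol describes directional and non-directional libraries, and the strand setting is not given in the sources used here. The authors also deposited FPKM values, each being a count scaled by gene length and a library constant.

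Groups and replicate numbers came from the sample titles. Protein-coding genes kept by filterByExpr were tested with edgeR 4.0.16 (glmQLFit and glmQLFTest, R 4.3.3, TMM, no block), with Benjamini-Hochberg adjustment. Calls needed an adjusted p under 0.05 and a 1.5-fold change. Standard errors came from the fold change and the F statistic. Alternatives used DESeq2 1.42.0, limma 3.58.1 on log2(FPKM + 1) and log2(FPKM + 0.1), other scalings and filters, an offset from a lowess curve (span 0.3) on gene length, a replicate block, and left-out libraries. The edgeR fits with and without the block and DESeq2 were tested on simulated data. Libraries of a group are labelled as different rats, so p-values measure the spread between rats.

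Named genes were the members, all genes with the small subunit protein name, other calpain family genes, neighbours within 200 kb (the 5 nearest per copy), the 5 most similar profiles, and up to 4 per other list with non-overlapping groups and the largest fold changes. Alkbh6, Syne4, Clip3, Sdhaf1, the summed copies of the neighbourhood, Echs1, Sptan1, the neurofilament genes, Gca and Sarm1 were otherwise chosen after their values were seen. Members and lists were chosen with earlier results of these data known. Every pair of libraries differed by more than sampling noise, with a chi-square per degree of freedom of at least 43.5. No genome was used.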

Additional observations from a re-analysis of the deposited data

How the results depend on the processing

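The 8 members other than LOC100911363 were called 0 times in every alternative run. For Capn1 the edgeR adjusted p was 0.0572 with the replicate block (log2 fold change 0.33). With the gene length offset and the block it was 0.0392 (log2 fold change 0.40), at less than a 1.5-fold change. The only gene called in the main comparison was LOC100911363, which was chosen for its fall. Neither that call nor the count with its copies summed is therefore a test. The number of genes called was 1 in the main comparison (0 higher). It was 2 without the filter, with at least 10 counts in every library and with limma on log2(FPKM + 0.1), and 4 with limma on log2(FPKM + 1). With DESeq2 it was 99, with DESeq2 and the replicate block 1046, and with the gene length offset and the block 1082. With the small subunit copies summed before the fit it was 0. It lay between 0 and 7 with 1 library left out, being 0 without cisplatin library 1, 7 without cisplatin library 2, 5 without vehicle library 1 and 4 without vehicle library 2. A replicate block brought it to 1665 (529 higher). The replicate numbers come from the titles and mark different rats. The difference between replicates 2 and 1 correlated across genes between the groups (Pearson 0.444, Spearman 0.567). Genes are no independent replicates, and this does not show that rats were paired. With the block, LOC100912380 was called (log2 fold change 0.95, adjusted p = 0.0256 from edgeR), but not with DESeq2 and the block (adjusted p = 0.141) or the gene length offset and the block (adjusted p = 0.103 from edgeR). The block brought 24 of the 56 genes followed past the threshold, none of them one of the 8 members, beside 1665 of 14719 over all genes. DESeq2 with the block brought 17, beside 1046 of 18025, and the length offset with the block 12, beside 1082 of 14719. DESeq2 alone brought 4, beside 99 of 18025. The 56 include genes named for large differences between the groups, so that choice raises their share.

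The log2 fold change of the summed copies was -2.75 with the gene length offset, with and without the block, -2.30 with log2(FPKM + 1) and -2.34 with log2(FPKM + 0.1). The share of LOC100911363 in vehicle library 1 was 90.5% by FPKM. Scaled by library size without TMM, the sign turned for Capn2 (-0.052), Capn7 (-0.0057) and Capn3 (-0.018). With the gene length offset it turned for Cast (0.10 with and without the block), Capn15 (0.14 in both), Pdcd6ip (0.051, and 0.053 with the block), Mycbp2 (0.17 in both) and LOC100911774, the Tbcb copy (-0.049, and -0.071 with the block). That offset also brought Capns1 from 0.34 to 0.026, Capn5 from 0.17 to 0.35, Map3k13 to -0.13, Ank2 to -0.54, Tln2 to -0.40, Sptbn1 to -0.23, Itpr1 to -0.51, Sri to 0.12 and Pdcd6 to 0.03. With 1 library left out the sign turned for Capn2 (-0.10 to 0.12), Capn5 (-0.031 to 0.36), Capn7 (-0.033 to 0.14), Capn10 (-0.22 to 0.075), Capn15 (-0.24 to 0.082), Capn6 (-0.21 to 0.89), Capn12 (-0.76 to 0.22), Capn3 (-0.11 to 0.26), Capn8 (-1.22 to 1.94), LOC100910772 (-0.33 to 0.92) and LOC100911774 (-0.27 to 0.51). The cause was not tested. Of the 56 genes followed, 42 kept their sign in every alternative that gave a value. Depth limits the low genes, since a count of 3 stands for 0.118 to 0.152 CPM.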
